A study of Mus musculus with 16 samples.

Results

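Metallothioneins and the zinc transporters that work with them were followed through osteoclast formation: the metallothionein genes Mt1, Mt2 and Mt3, the gene of their metal-sensing activator Mtf1, the zinc importer Slc39a4 and the zinc exporter Slc30a1. A gene was taken from the array feature that maps to exactly 1 gene symbol, and, had there been several, the brightest on average would have been used. Of the 6 genes, 5 had such a feature, out of 22180 genes on the array with one, and all 5 were among the 15526 genes tested. Slc30a1 lies only on features that carry another symbol too, so it has no value here.

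Bone marrow-derived macrophages of 5-week-old male C57BL/6 mice were turned into osteoclasts, the cells that resorb bone, and their RNA was measured on 1-colour arrays. With dimethyl α-ketoglutarate (αKG, 1 mM), M-CSF and RANKL, 8 arrays were made at 0.5, 1, 3, 6, 12, 24, 48 and 72 h. With DW, the control treatment under its label, M-CSF and RANKL, 6 arrays were made at 3, 6, 12, 24, 48 and 72 h, and the 2 arrays at 0 h had DW and M-CSF but no RANKL. M-CSF was thus common to all groups, every RANKL time in each arm is 1 array, and 0.5 and 1 h have no DW partner. Neighbouring times carry 1 phase name in the labels: fast for 0.5 and 1 h, early for 3 and 6 h, intermediate for 12 and 24 h, and late for 48 and 72 h, which gives 8 groups of 2 arrays. Separate cultures or animals are not mentioned in the labels. The p-values therefore cover the spread of these arrays alone, and the 2 arrays of a RANKL phase also differ in time.

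Macrophage markers were high on every array: the mean of 7 lay between 10.38 and 11.31 log2 with RANKL, and at 11.18 and 11.20 at 0 h. The mean of 10 osteoclast markers was 7.69 and 9.19 log2 in late αKG arrays, 9.45 and 11.12 in late DW arrays, and 5.13 and 5.20 at 0 h. Neutrophil markers (10 genes) averaged 5.29 and 5.88 log2 in late αKG arrays, 5.17 and 5.46 in late DW arrays, and 7.78 and 7.80 at 0 h. In such bulk samples fewer cells of a type and less RNA per cell cannot be told apart. The DW array of 72 h had the lowest mean correlation with the others (0.928, next lowest 0.960).

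Metallothioneins are small, cysteine-rich proteins that bind zinc and copper and buffer the free metal of the cell. When zinc is plentiful, the zinc-finger protein MTF1 binds metal response elements in the promoters of Mt1, Mt2 and Slc30a1 and raises their transcription. ZIP proteins, encoded by Slc39a genes, bring zinc into the cytosol, and ZnT proteins, encoded by Slc30a genes, move it out of the cytosol. Osteoclasts make several zinc enzymes, among them matrix metalloproteinases and carbonic anhydrase II.

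Mt3 and Mt2 differed between the arms in opposite directions. In late arrays the αKG minus DW difference of Mt3 was -1.99 log2, while Mt2 was higher with αKG by 0.63 log2, and Slc39a4 was higher with αKG at all 6 matched times. Mt1 and Mtf1 passed the test in no comparison.

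**Figure D1:**
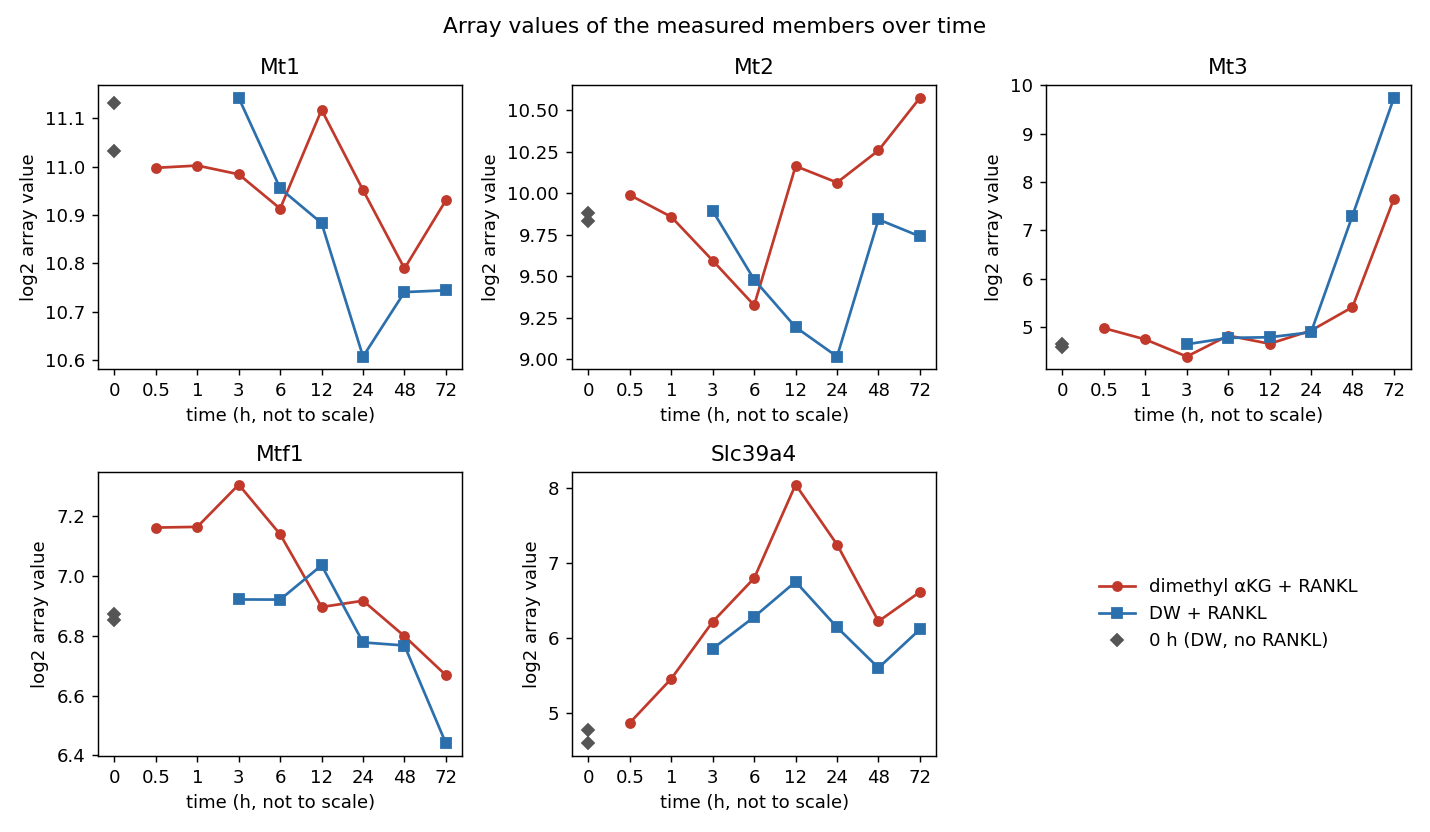
Array values (log2, 1 array per point) of Mt1, Mt2, Mt3, Mtf1 and Slc39a4 against time in h (axis not to scale), with αKG and RANKL in red circles, DW and RANKL in blue squares and the 2 arrays at 0 h in grey diamonds. Mt3 stays at or below 4.98 log2 through 24 h in both arms and reaches 7.65 with αKG and 9.74 with DW at 72 h, while the αKG line of Slc39a4 lies above the DW line at all 6 matched times; each panel has its own scale.

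The 3 metallothionein genes lie next to each other. In the RefSeq gene table of mouse (GRCm38.p6) the protein-coding genes run Mt4, Mt3, Mt2 and Mt1 along chromosome 8, between Bbs2 and Nup93. Because these neighbours had different courses, the RefSeq promoter windows (250 bases before to 50 after the annotated start, plus strand) of the measured ones are printed here. They are chr8:94178839-94179138 for Mt1, chr8:94172368-94172667 for Mt2 and chr8:94152357-94152656 for Mt3. Capitals mark the core of the metal response element, searched on both strands as TGCACNC or TGCGCNC.
Mt1: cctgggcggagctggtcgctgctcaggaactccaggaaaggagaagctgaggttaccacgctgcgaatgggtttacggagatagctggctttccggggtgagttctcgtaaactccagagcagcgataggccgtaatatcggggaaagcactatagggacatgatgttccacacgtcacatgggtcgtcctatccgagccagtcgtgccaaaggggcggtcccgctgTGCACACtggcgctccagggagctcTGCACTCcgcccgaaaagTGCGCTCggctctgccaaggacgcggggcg
Mt2: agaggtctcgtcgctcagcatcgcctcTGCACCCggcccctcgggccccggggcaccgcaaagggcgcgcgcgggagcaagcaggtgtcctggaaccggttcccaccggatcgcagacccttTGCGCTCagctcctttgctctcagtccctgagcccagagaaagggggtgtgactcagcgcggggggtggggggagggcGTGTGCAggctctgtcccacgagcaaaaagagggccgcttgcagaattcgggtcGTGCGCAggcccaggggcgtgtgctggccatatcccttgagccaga
Mt3: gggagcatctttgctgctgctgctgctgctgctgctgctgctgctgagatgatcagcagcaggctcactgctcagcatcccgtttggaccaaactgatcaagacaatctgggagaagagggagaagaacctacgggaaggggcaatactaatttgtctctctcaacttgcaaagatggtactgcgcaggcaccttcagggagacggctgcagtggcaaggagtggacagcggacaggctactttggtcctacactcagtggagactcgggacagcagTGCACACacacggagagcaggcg

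The Mt1 window held 3 matches to the core, at -23, 3 and 21 from the start site, the first base of each match being counted. The Mt2 window held 4, at -223, -128, -50 and 5, of which the matches at -50 and 5 read on the minus strand. The Mt3 window held 1, at 28. Among 27025 promoter windows of this length, 25.6% held at least 1 match, 2% at least 3 and 0.503% at least 4. The window of Slc30a1 held 2 matches (at least 2 in 7.11% of windows) and that of Mtf1 held 0. The antioxidant response element core, TGACNNNGC, was found in the windows of Mt2 and Slc30a1, 1 match in each, and in 12.5% of all windows. In Mt2 that match begins at -79 and overlaps the AP-1 site TGANTCA, which 7.93% of windows held. Such matches describe letters and do not show binding. The windows follow the annotated start sites, and whether these cells start transcription there was not tested. Elements outside the windows were not counted, so the numbers of matches do not describe the whole promoters.

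**Figure D2:**
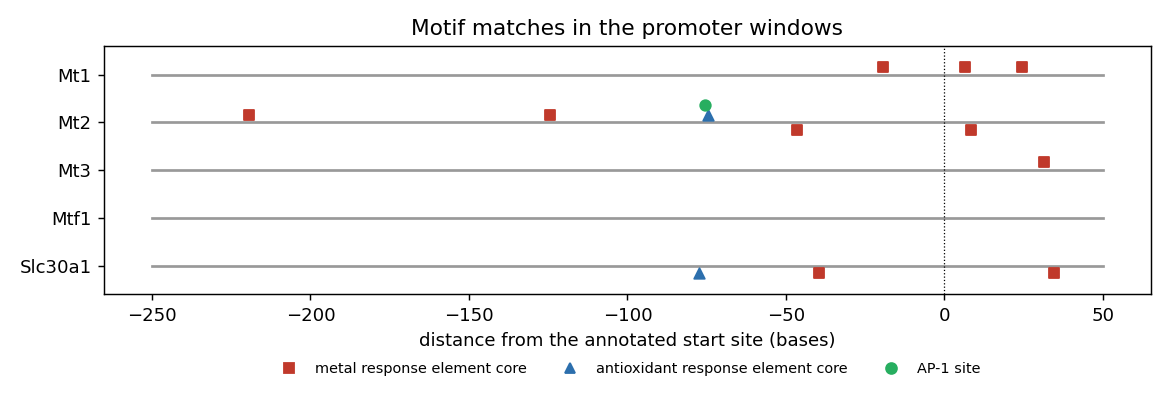
Matches to 3 motifs in the promoter windows of Mt1, Mt2, Mt3, Mtf1 and Slc30a1, by distance from the annotated start site in bases (dotted line), with plus-strand matches above and minus-strand matches below each line. Mt2 has 4 metal response element cores, Mt1 has 3 and Mt3 has 1; in Mt2 the antioxidant response element core and the AP-1 site share their first base.

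Mt3, a metallothionein known mainly from brain, was the gene of the set that differed most between early and late arrays. With αKG its values were 4.98, 4.74, 4.39, 4.82, 4.65, 4.92, 5.41 and 7.65 log2 at 0.5, 1, 3, 6, 12, 24, 48 and 72 h. With DW they were 4.64, 4.77, 4.79, 4.89, 7.31 and 9.74 log2 at 3, 6, 12, 24, 48 and 72 h, and the 2 arrays at 0 h had 4.59 and 4.64. Through 24 h all values in both arms lay between 4.39 and 4.98, close to the filter for dim genes at 4.34 log2, and both arms left that range at 48 and 72 h. The mean of Mt3 over the 12 arrays without the late phase was 4.74 log2, so it would pass that filter without its high arrays. It passed the stricter alternative filter, which leaves out the lowest 50% of genes (5.19 log2 or less), only through its late arrays. At 72 h the αKG array stood 8.21-fold and the DW array 34.9-fold above the mean at 0 h.

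Against 0 h, Mt3 in late DW arrays rose by 3.91 ± 0.72 log2 (SE; adjusted p = 0.00849, limma with Benjamini-Hochberg adjustment over all genes tested). In late αKG arrays it stood at 1.92 ± 0.72 log2 above 0 h and did not pass (adjusted p = 0.294). Mt3 was the 1 of 5 genes called in late DW arrays, where 6.64% of all genes were called. This call was lost without the 72 h array (2.69 log2, adjusted p = 0.053), without either array at 0 h (adjusted p = 0.0688 and 0.0693) and when the fit held no other groups (adjusted p = 0.131). It was kept without the 48 h array (5.13 log2), a fit in which the 72 h array alone stands for late DW. More of all genes were called in that fit too.

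The 2 arms were compared at the 6 times they share, with time as a block. The αKG minus DW difference of Mt3 was -0.25, 0.05, -0.13 and 0.03 log2 at 3, 6, 12 and 24 h, and -1.89 and -2.09 at 48 and 72 h. The αKG array thus held 0.269 of the DW value at 48 h and 0.235 of it at 72 h. In the late phase Mt3 was lower with αKG than with DW, by a difference of -1.99 ± 0.14 log2 (adjusted p = 0.000474, limma, lower at 2 of 2 late times). The call was kept whichever of the 6 pairs was left out, but leaving out the 3, 6, 12 or 24 h pair cannot change the late difference itself. Without the 48 h pair the difference was -2.09 log2 and without the 72 h pair -1.89, each then 1 array against 1. The call was lost in the limma fit without the time block (adjusted p = 0.768). The late difference minus the early one was -1.89 ± 0.19 log2 (adjusted p = 0.0156), and minus the intermediate one -1.94 ± 0.19 (adjusted p = 0.0103). Mt3 was the 1 of 5 genes called in each of these contrasts, in which 0.605% and 0.103% of all genes were called. The contrast with the early phase was lost without the 3 h or the 6 h pair (adjusted p = 0.154 and 0.246), and the contrast with the intermediate phase without the 12 h or the 24 h pair (adjusted p = 0.249 and 0.156).

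In both arms Mt3 had its highest value at 72 h, above its 48 h value by 2.24 log2 with αKG and by 2.44 log2 with DW, single arrays each. The tested genes most like Mt3 over the 16 arrays were Oscar, an immune receptor of osteoclasts (Pearson r = 0.994), Akr1c18, a steroid reductase (r = 0.983), and Mst1r, a receptor tyrosine kinase (r = 0.981). These correlations describe 16 arrays that share 1 time course, in which a few late arrays set most of the spread. The osteoclast marker mean moved with Mt3 (values above), and its part in the Mt3 difference was not tested.

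Mt2, an inducible metallothionein of most tissues, followed another course. With αKG its values were 9.99, 9.86, 9.59, 9.32, 10.16, 10.06, 10.26 and 10.57 log2 from 0.5 to 72 h. With DW they were 9.89, 9.48, 9.19, 9.02, 9.84 and 9.74 log2 from 3 to 72 h, and the arrays at 0 h had 9.83 and 9.88. The arms lay close at 3 and 6 h, with αKG the lower. From 12 h each αKG array exceeded each DW array, a cut seen in the values. How many of all genes do the same was not counted. The lowest DW value was that at 24 h and the lowest αKG value that at 6 h.

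The αKG minus DW difference of Mt2 was -0.30 and -0.15 log2 at 3 and 6 h, 0.97 and 1.05 at 12 and 24 h, and 0.42 and 0.84 at 48 and 72 h. In the intermediate phase Mt2 was higher with αKG than with DW by 1.01 ± 0.11 log2, a 2.01-fold difference (adjusted p = 0.0129, limma, higher at 2 of 2 times). Set against 0 h, Mt2 stood at 0.26 log2 in intermediate αKG arrays and at -0.75 log2 in intermediate DW arrays, and neither was called. In the late phase Mt2 was higher with αKG than with DW by 0.63 ± 0.11 log2 (adjusted p = 0.0153, limma, higher at 2 of 2 times). In the early phase it stood at -0.23 ± 0.11 log2 and did not pass (adjusted p = 0.623), and over all 6 times at 0.47 ± 0.18 (adjusted p = 0.302; higher at 4 of 6 times). The intermediate call was lost without the 3, 6, 12 or 24 h pair (adjusted p = 0.0564, 0.0535, 0.281 and 0.512), and the late call without the 3, 6 or 72 h pair (adjusted p = 0.051, 0.0505 and 0.0874). Without the 72 h pair the late difference was 0.42 log2. With a variance prior that ignores intensity they also missed the threshold (adjusted p = 0.0669 and 0.0563).

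Whether the αKG difference of Mt2 changed between phases was tested as a contrast. It was higher in the late than in the early phase by 0.85 ± 0.15 log2 (adjusted p = 0.0502) and higher in the intermediate than in the early phase by 1.24 ± 0.15 (unadjusted p = 1.86e-05, adjusted p = 0.261), and neither passed. In the intermediate minus early contrast 0 of 5 genes and 0% of all genes were called by limma, with 3 of the 5 and 910 of all genes at an unadjusted p under 0.05. Against 0 h, Mt2 stood at 0.56 ± 0.16 log2 in late αKG arrays (adjusted p = 0.158) and at -0.75 ± 0.16 log2 in intermediate DW arrays (adjusted p = 0.0711), without passing in either. The genes most like Mt2 over the 16 arrays were Mrpl24 (r = 0.852), Cysrt1 (r = 0.768) and Ankra2 (r = 0.753).

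Mt1, the neighbour of Mt2 and its close relative, varied least of the metallothioneins. Its values with αKG lay between 10.79 and 11.12 log2 and with DW between 10.61 and 11.14, against 11.13 and 11.03 at 0 h. The αKG minus DW difference had the same signs as that of Mt2 at each time: -0.16 and -0.04 log2 at 3 and 6 h, 0.23 and 0.34 at 12 and 24 h, and 0.05 and 0.19 at 48 and 72 h. Between the arms, the intermediate difference of Mt1 was 0.29 ± 0.07 log2 (unadjusted p = 0.00321, adjusted p = 0.242, limma), which did not pass. It passed without the 48 h or the 72 h pair, but these fits leave the difference at 0.29 log2 and change only the estimate of the spread. Far more of all genes were called in the intermediate phase in these fits too, so the pass is not particular to Mt1. Against 0 h, Mt1 stood at -0.34 ± 0.11 log2 both in intermediate DW arrays (unadjusted p = 0.0125, adjusted p = 0.3) and in late DW arrays (unadjusted p = 0.0119, adjusted p = 0.108), and neither passed. Over the 6 times Mt1 stood at 0.10 ± 0.07 log2 (adjusted p = 0.555; higher at 4 of 6). Over the 16 arrays Mt1 correlated with Mt2 at r = 0.37 and with Mt3 at r = -0.49, and Mt2 with Mt3 at r = 0.26, over arrays that share 1 time course. Dock11 (r = 0.875), Nlk (r = 0.856) and Slc37a3 (r = 0.854) were most like Mt1. Mt1, Mt2 and Mt3 are related in sequence, and whether their features share signal was not tested. The fourth gene of the cluster, Mt4, had a mean of 4.02 log2 and fell under the filter for dim genes.

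**Figure D3:**
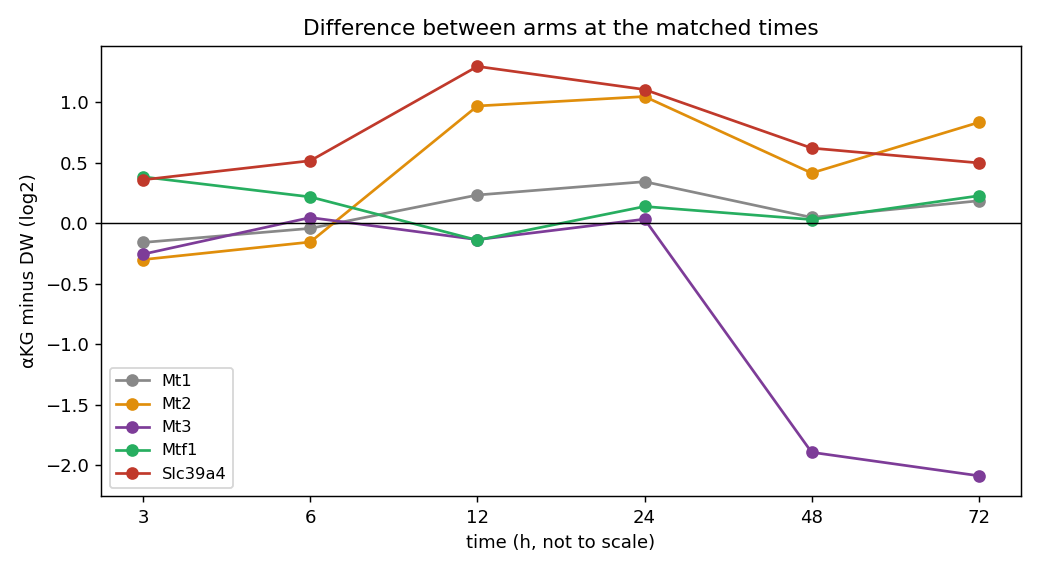
αKG minus DW difference (log2, 1 array against 1 array at each point) of Mt1, Mt2, Mt3, Mtf1 and Slc39a4 at the 6 matched times in h (axis not to scale). Slc39a4 lies above 0 at all 6 times with its peak of 1.30 at 12 h, Mt2 is above 0 from 12 h, and Mt3 lies at -1.89 and -2.09 at 48 and 72 h.

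Mtf1, the activator of metallothionein genes, showed small differences. With αKG it stood at 7.16, 7.16, 7.31, 7.14, 6.90, 6.92, 6.80 and 6.67 log2 from 0.5 to 72 h. With DW it stood at 6.92, 6.92, 7.04, 6.78, 6.77 and 6.44 log2 from 3 to 72 h, against 6.85 and 6.87 at 0 h. The 4 αKG arrays up to 6 h were above both arrays at 0 h and above every DW array, and the lowest value in each arm was that at 72 h. The share of all genes with such an order was not counted. The early αKG minus DW difference was 0.30 ± 0.13 log2 (adjusted p = 0.549), and the difference over the 6 times was 0.14 ± 0.08 (adjusted p = 0.468; higher at 5 of 6). Early αKG arrays stood at 0.36 ± 0.14 log2 above 0 h (adjusted p = 0.507). The values are transcript levels, and MTF1 is regulated largely by metal binding of the protein. Crkl (r = 0.897), Unc119b (r = 0.877) and Samd4b (r = 0.867) were most like Mtf1.

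Slc39a4 encodes ZIP4, the zinc importer of the intestine whose loss causes the zinc deficiency disease acrodermatitis enteropathica in humans. With αKG its values were 4.87, 5.46, 6.22, 6.80, 8.05, 7.25, 6.22 and 6.62 log2 from 0.5 to 72 h. With DW they were 5.86, 6.28, 6.75, 6.14, 5.60 and 6.12 log2 from 3 to 72 h, against 4.77 and 4.59 at 0 h. All 14 arrays with RANKL were above both arrays at 0 h, and the share of all genes for which this holds was not counted. Both arms were highest at 12 h, and both were lower at 48 h than at 24 or 72 h.

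Against 0 h, Slc39a4 rose in 3 of 4 αKG phases. The changes were 1.83 ± 0.34 log2 in the early phase (adjusted p = 0.0436, limma), 2.97 ± 0.34 in the intermediate phase (a 7.83-fold change, adjusted p = 0.00639) and 1.74 ± 0.34 in the late phase (adjusted p = 0.0296), and 0.48 ± 0.34 without passing in the fast phase (adjusted p = 1.00). In DW arrays it rose by 1.77 ± 0.34 log2 in the intermediate phase, a 3.40-fold change (adjusted p = 0.0424). It stood at 1.39 ± 0.34 in the early DW phase (adjusted p = 0.166) and at 1.18 ± 0.34 in the late DW phase (adjusted p = 0.063), which did not pass. These comparisons share the 2 arrays at 0 h, and in them RANKL cannot be told apart from the hours in culture. In the αKG phases αKG cannot be told apart from these either, since the arrays at 0 h had DW.

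Slc39a4 was the only one of the 5 genes called in these 4 comparisons with 0 h. Among all genes, 0.502% were called in early αKG arrays, 0.67% in intermediate αKG arrays, 1.43% in late αKG arrays and 0.779% in intermediate DW arrays. In fast αKG arrays 0 of 5 members and 0% of all genes were called by limma (0 of 5 and 540 of all genes at an unadjusted p under 0.05). In early DW arrays 0 of 5 members (1 at an unadjusted p under 0.05) and 0.341% of all genes were called. The early αKG, late αKG and intermediate DW calls were lost whichever of their 4 arrays was left out (adjusted p from 0.116 to 0.384, from 0.0693 to 0.264 and from 0.0945 to 0.313). The intermediate αKG call was kept only without the 24 h array (adjusted p = 0.0245), and was lost without the 12 h array or either array at 0 h (adjusted p from 0.0576 to 0.0903). Quantile normalization ended the early αKG and intermediate DW calls (adjusted p = 0.0505 and 0.052).

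Between the arms, the αKG minus DW difference of Slc39a4 was 0.36, 0.52, 1.30, 1.11, 0.62 and 0.50 log2 at 3, 6, 12, 24, 48 and 72 h. Over the 6 times Slc39a4 was higher with αKG than with DW by 0.73 ± 0.13 log2, a 1.66-fold difference (adjusted p = 0.0496, limma, higher at 6 of 6 times). In the intermediate phase it was higher with αKG by 1.20 ± 0.12 log2 (2.30-fold, adjusted p = 0.0129, limma). In the late phase it was higher by 0.56 ± 0.12 (adjusted p = 0.0366), and in the early phase it stood at 0.44 ± 0.12 (adjusted p = 0.315). The intermediate difference exceeded the early one by 0.76 ± 0.17 log2 (adjusted p = 0.62) and the late minus intermediate contrast was -0.64 ± 0.17 (adjusted p = 0.222), and neither contrast passed. The call over 6 times lay at the threshold and was lost in 9 of 14 alternative fits (adjusted p from 0.051 to 0.817 in these 9), among them all fits that leave out 1 pair except that without 72 h (adjusted p = 0.0287). The late call was lost whichever pair was left out (adjusted p from 0.0738 to 0.101), and the intermediate call without the 12 h or the 24 h pair (adjusted p = 0.282 and 0.456). Tmem38b (r = 0.959), Anxa4 (r = 0.944) and B2m (r = 0.917) were most like Slc39a4 over the 16 arrays.

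Counted over the set, 1 of 5 genes was called over the 6 matched times (0.399% of all genes), 0 of 5 in the early phase (2 at an unadjusted p under 0.05; 0.161% of all genes), 2 of 5 in the intermediate phase, both higher (0.0966% of all genes), and 3 of 5 in the late phase, 2 higher and 1 lower (4.27% of all genes). The genes were chosen with earlier results of these data known, so these counts carry no support of their own. No call between the arms passed in the fit without the time block.

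The other zinc transporters were taken from a list of 9 ZnT and 13 ZIP genes. Of 7 ZnT exporters tested, 0 were called in any of the 14 comparisons by limma, and 0 reached an unadjusted p under 0.05. Over these comparisons the share of all genes called ran from 0% to 6.64%, so that 0 of 7 lies near the share of all genes. Their median αKG minus DW difference over the 6 times was 0.01 log2, against 0.00 for all genes, and their median change in late DW arrays was 0.09. Of the 13 ZIP importers tested, 2 were called lower with αKG in the late phase and 0 higher, against 4.27% of all genes called in either direction. The median late difference was 0.01 log2 for the 13 and 0.01 for all genes. In late DW arrays 1 of the 13 was called higher and 1 lower than at 0 h, against 6.64% of all genes.

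The 2 ZIP genes called lower with αKG in the late phase were Slc39a1 and Slc39a13. Slc39a1 encodes ZIP1, an importer of the plasma membrane. It had 9.15 and 9.47 log2 in late αKG arrays, 9.48 and 10.55 in late DW arrays, and 9.21 and 9.25 at 0 h. In the late phase it was lower with αKG than with DW by 0.71 ± 0.15 log2 (adjusted p = 0.0365, limma). Without the 72 h pair the difference was -0.33 log2 and did not pass (adjusted p = 0.21). Slc39a13 encodes ZIP13, a transporter of internal membranes linked to connective tissue development. It had 7.74 and 7.90 log2 in late αKG arrays, 8.08 and 8.64 in late DW arrays, and 7.16 and 7.15 at 0 h. In the late phase it was lower with αKG than with DW by 0.54 ± 0.12 log2 (adjusted p = 0.0424, limma), with both late αKG arrays above both arrays at 0 h. In late DW arrays it rose by 1.21 ± 0.20 log2 against 0 h (adjusted p = 0.00527, limma). Without the 72 h arrays the difference between the arms was -0.34 log2 (adjusted p = 0.339) and was not called, while the change against 0 h was kept at 0.92 log2 (adjusted p = 0.0364).

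Slc39a8, which encodes ZIP8, an importer of zinc and manganese, was the 1 ZIP gene called lower in late DW arrays. It had 6.46 and 4.88 log2 in late DW arrays at 48 and 72 h, against 7.43 and 7.46 at 0 h, a fall by 1.78 ± 0.46 log2 (adjusted p = 0.0406) that was lost without the 72 h array (-0.99 log2, adjusted p = 0.257). In late αKG arrays it had 6.35 and 6.22 log2, and the arms were closer at 48 h than at 72 h. The late αKG minus DW difference of 0.62 ± 0.27 log2 did not pass (adjusted p = 0.252). Slc39a14, an importer of zinc and iron, came next to Slc39a4 by p among the zinc transporters over the 6 times, with a difference of 0.36 ± 0.10 log2 (adjusted p = 0.178).

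**Figure D4:**
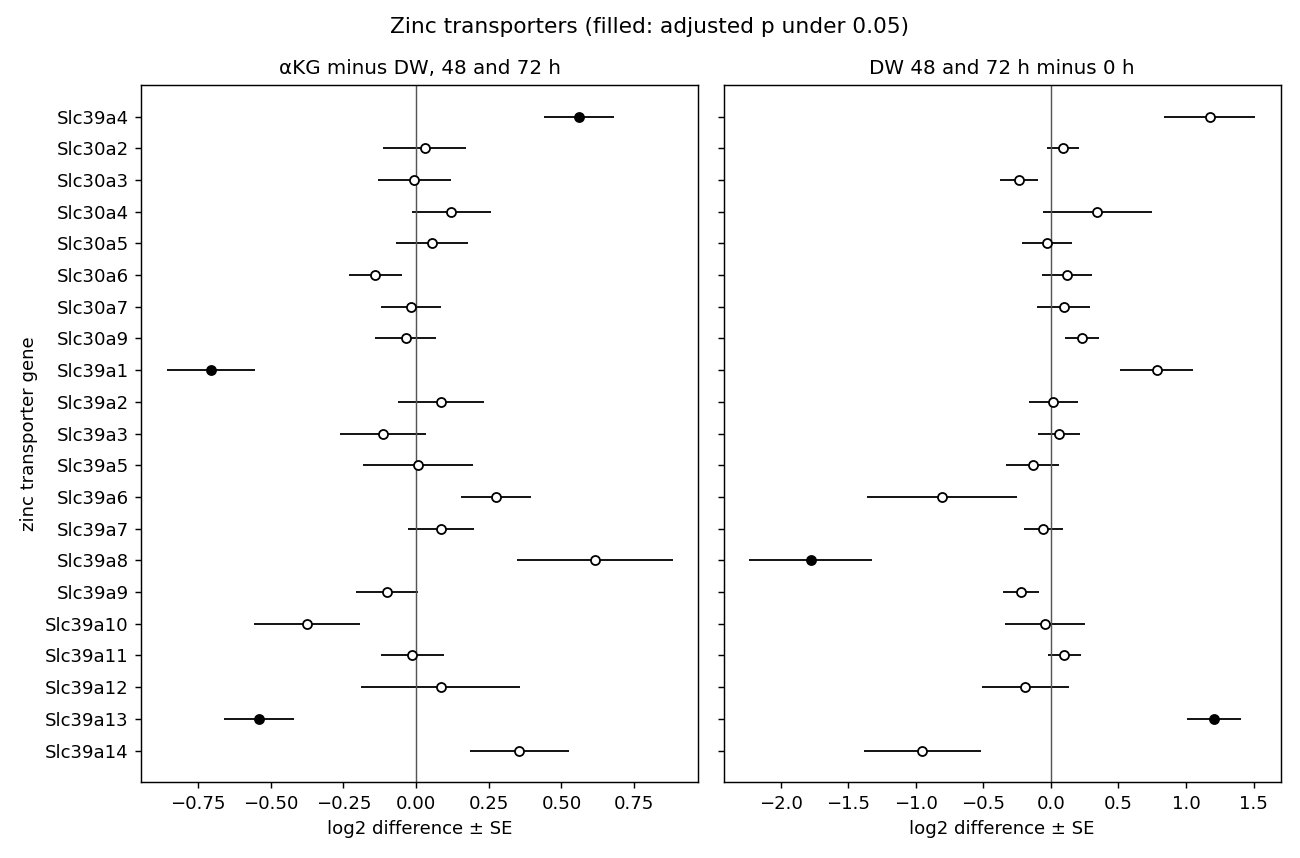
Log2 difference ± SE of Slc39a4 and the other tested zinc transporter genes in late arrays (48 and 72 h; 2 arrays per group), αKG minus DW on the left and DW minus 0 h on the right, with filled points at an adjusted p under 0.05. With αKG, Slc39a4 is higher (0.56) and Slc39a1 (-0.71) and Slc39a13 (-0.54) are lower, while no Slc30a gene is filled in either panel; the horizontal scales differ.

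Of 10 copper and divalent metal genes tested, 2 were called higher with αKG in the late phase and 0 lower, against 4.27% of all genes called in either direction (median 0.08 log2, against 0.01 for all genes). Against 0 h, 1 of the 10 was called in early αKG arrays (0.502% of all genes), 1 in early DW arrays (0.341%) and 2 in late DW arrays (6.64%). The 2 called between the arms were Slc11a1, which encodes NRAMP1, a metal transporter of the phagosome (0.53 ± 0.06 log2, adjusted p = 0.00473), and Slc31a2, a copper transporter gene (0.44 ± 0.10, adjusted p = 0.039). Both calls were kept without the 72 h pair (adjusted p = 0.00475 and 0.0177). In late DW arrays Slc11a1 fell by 0.64 ± 0.08 log2 against 0 h (adjusted p = 0.00129). Slc11a2, which encodes the iron importer DMT1, rose against 0 h by 1.04 ± 0.18 log2 in early αKG arrays (adjusted p = 0.0304), and by 1.12 ± 0.18 in early (adjusted p = 0.0257) and 0.90 ± 0.18 in late DW arrays (adjusted p = 0.013). Of 6 tested genes reported to depend on MTF1, a list that shares Slc39a10 and Slc30a10 with the transporter lists, 0 were called by limma between the arms over the 6 times (3 at an unadjusted p under 0.05; 0.399% of all genes called). In late DW arrays 1 of the 6 was called, against 6.64% of all genes: Gclc, a glutathione synthesis gene, which fell by 1.28 ± 0.27 log2 against 0 h (adjusted p = 0.0156). Without the DW array of 72 h the late calls of Slc11a2 (0.65 log2, adjusted p = 0.0867) and Gclc (-0.99 log2, adjusted p = 0.123) were lost and that of Slc11a1 was kept (adjusted p = 0.00292).

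Genes of the oxidant response were set beside Mt2 and Slc39a4 because metallothioneins also respond to oxidants. In the intermediate phase, in which Mt2 and Slc39a4 were called, Slc7a11 (2.62 ± 0.33 log2), Nqo1 (1.75 ± 0.22) and Gclm (1.19 ± 0.12) were called higher with αKG as well (adjusted p = 0.028, 0.028 and 0.0129). Hmox1 (0.92 ± 0.18), Srxn1 (0.90 ± 0.16) and Txnrd1 (0.47 ± 0.16) did not pass there (adjusted p = 0.123, 0.0963 and 0.402). Thus 3 of these 6 genes were called, against 0.0966% of all genes. The 6 genes were chosen with earlier results of these data known, so counts of them carry no support of their own. In the early phase Slc7a11 (3.26 ± 0.33 log2, adjusted p = 0.012), Gclm (1.06 ± 0.12, adjusted p = 0.0286) and Srxn1 (1.28 ± 0.16, adjusted p = 0.0362) were called (0.161% of all genes), while Mt2 stood at -0.23 ± 0.11. Hmox1 (0.96 ± 0.18), Nqo1 (0.75 ± 0.22) and Txnrd1 (0.73 ± 0.16) did not pass in the early phase (adjusted p = 0.122, 0.337 and 0.187). In the late phase, in which Mt2 and Slc39a4 were also called, Gclm (0.81 ± 0.12 log2), Hmox1 (0.92 ± 0.18) and Nqo1 (1.10 ± 0.22) were called higher with αKG (adjusted p = 0.0106, 0.0254 and 0.028; 4.27% of all genes). Slc7a11 (0.73 ± 0.33), Srxn1 (0.29 ± 0.16) and Txnrd1 (-0.02 ± 0.16) did not pass there (adjusted p = 0.272, 0.366 and 0.969). Without the 72 h pair the late differences of Gclm, Hmox1 and Nqo1 were 0.87, 1.27 and 1.39 log2. In the fit without the time block, limma called 0 of all genes in the early and 0 in the intermediate phase. The early and intermediate calls of the oxidant response genes were thus lost in it. In the late phase that fit called 3 of all genes. Whether the oxidant response genes and Mt2 respond to 1 signal was not tested.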

How the data were processed

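Gene expression was measured on 16 arrays of 1 colour. The authors deposited log2 values, which were used unchanged; per the labels' protocols, cDNA was made from total RNA and labelled with biotin. The files do not name the log base, which was read from values that run from 0.61 to 13.25, and array medians of 4.84 to 4.93 show normalization between arrays. How probes were summarised, corrected for background and normalized, and on which genome build, is not given in the sources used here. No background level could be set per gene, and precision is limited by how few arrays there are.

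The platform annotation gives 1 gene symbol to 23521 of 33793 features; 1814 had several and 8458 are unnamed here. Genes in the lowest 30% of mean value (4.34 log2 or less) were left out of the tests. Linear models used limma (version 3.58.1, under R 4.3.3), whose eBayes step took an intensity trend. The Benjamini-Hochberg adjustment ran over all 15526 genes at a threshold of 0.05, and the code was tested on simulated data. RANKL phases were compared with 0 h in 1 fit of 8 groups (8 residual degrees of freedom). The arms were compared on the 12 arrays at matched times with time as a block, as 1 effect (5 residual degrees of freedom) or 1 per phase (3), and differences between phases as contrasts. Time pairs the arrays by design; deviations from the arm means correlated at r = 0.50 to 0.75 between arrays of the same time, and 6 of 6 αKG arrays correlated best with their own time. All errors after ± are standard errors on the log2 scale.

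The members, the gene lists and the tests were chosen with earlier results of these data known. Named genes are the 6 members, list genes past the threshold, list genes with the smallest p, the 3 tested genes most correlated with each member and a few oxidant response genes. Marker means are averages of log2 values. The lists of B cell, T cell, erythroid and stromal markers were low on average: their means lay between 4.16 and 5.11, 3.93 and 4.32, 4.27 and 4.84, and 4.94 and 5.72 log2. Only 3 of 4 B cell and 2 of 5 erythroid markers had a value. Col1a1 stood highest of the stromal markers, with a mean of 6.33 log2 at 0 h, and 7.30 with DW and 7.09 with αKG at 72 h. Promoter windows came from RefSeq (GRCm38.p6) and matched 5 of 6 members by symbol; windows on chromosome 18 were not used here. Alternatives were other filters for dim genes, normalizations, variance priors, rules for several features of a gene, fits of 2 groups, no time block, and leaving out arrays or pairs. They were run for the members; for genes of the metal lists called in late arrays, a fit without the 72 h arrays was added after seeing the data.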

Additional observations from a re-analysis of the deposited data

Results flagged for a closer look

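The αKG minus DW difference of Mt3 differed between phases by a contrast in the fit. It was lower in the late than in the early phase by -1.89 log2 (adjusted p = 0.0156) and lower in the late than in the intermediate phase by -1.94 log2 (adjusted p = 0.0103), with both late times below every earlier time.

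Mt2 and Mt1 had 1 sign at both early times and the other sign at both intermediate and both late times. The mean αKG minus DW difference of Mt2 was -0.23 log2 at the early, 1.01 at the intermediate and 0.63 at the late times; that of Mt1 was -0.10 at the early, 0.29 at the intermediate and 0.12 at the late times. The contrasts did not pass: against the early phase, the adjusted p of Mt2 was 0.261 for the intermediate and 0.0502 for the late phase, and that of Mt1 was 0.689 and 0.383.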

How the results depend on the processing

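Of 560 values of the 5 genes under other settings, 536 kept their direction and their side of the threshold, 19 lost a call, 3 gained one and 2 changed sign. Of 350 values with 1 array or pair left out, these numbers were 287, 42, 6 and 15. Most of these values were not called as reported and had no call to lose, so these totals do not measure how stable the calls are. Every call except the late αKG minus DW difference of Mt3 was lost in at least 1 fit that left out an array or pair. Among the other settings, only quantile normalization and median centring could change a difference itself. The remaining settings left it as it was and could move only its p-value. The values of Mt3 with the lowest 50% of genes left out are among those kept but say nothing about its stability, since Mt3 passed that filter only through its high late arrays. No call between the arms was kept without the time block: the count of called genes became 0 over the 6 times, 0 in the intermediate phase, 0 in the late phase and 0 in both contrasts with the late phase. Over the 6 times the count of 1 became 0 with no filter on dim genes, with a prior without a trend and with the mean of all rows of a gene. The prior without a trend gave 1 in place of 2 in the intermediate and 1 in place of 3 in the late phase; the robust prior and the mean of rows gave 2 in place of 1 for late minus early. Quantile normalization gave 0 in place of 1 for early αKG and for intermediate DW against 0 h. With only 2 groups in the fit the count was 1 in place of 0 for early DW, and 0 in place of 1 for intermediate DW, late DW and intermediate αKG. With 1 array or pair left out, counts ran from 0 to 2 for late DW and late minus early, 0 to 3 for the intermediate and 1 to 2 for the late phase, and 0 to 1 for intermediate αKG, the 6 times, intermediate minus early and late minus intermediate. They were 0 in each such fit for early and intermediate DW and for fast, early and late αKG against 0 h, and for the early difference between the arms. The intermediate difference of Mtf1 turned to 0.0080 with quantile normalization and to 0.0035 with median centring.

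Changes of sign on leaving out arrays fell on differences near 0 that were not called. Their ranges against 0 h were -0.13 to 0.060 (Mt1) and -0.38 to 0.035 (Mt2) in early DW, -0.085 to 0.17 (Mtf1) in intermediate DW, -0.0013 to 0.13 (Mt2) in fast αKG, -0.23 to 0.20 (Mt3) in early αKG and -0.13 to 0.035 (Mt1) in intermediate αKG. Between the arms they were -0.25 to 0.048 in the early and -0.13 to 0.034 in the intermediate phase for Mt3, -0.10 to 0.20 for its intermediate minus early contrast, -0.14 to 0.14 for Mtf1 in the intermediate phase and -0.0099 to 0.27 for its late minus intermediate contrast. Over all genes the number called moved strongly too, from 3 to 1882 in the late phase (663 as reported) and from 1 to 174 over the 6 times (62 as reported). The cause was not tested. A lone array left in a group was assumed to vary like the other groups. Fits that leave out an array test fewer arrays, and with 1 array per arm and time a difference at 1 time has no replicate check.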
